A study of Rattus norvegicus with 6 samples.

Results

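Histone genes were followed in cultured rat oligodendrocyte precursor cells (OPCs) treated with the RIPK1 kinase inhibitor ZJU-37 or with its solvent DMSO. The deposited gene table has 32883 rows, and 50 of them were chosen by name alone, as those whose symbol starts with Hist1h, Hist2h, Hist3h or Hist4h or with H1f, H2af, H3f, H2ac, H2bc, H2az, H3c or H4c. Of the 50 genes, 34 are replication-dependent histone genes, 11 are variant histone genes and 5 are histone genes of germ cells. By name, the replication-dependent genes comprise 5 H1, 12 H2A, 9 H2B, 4 H3 and 4 H4 genes. The 6 libraries fall into 2 groups of 3. The OPCs came from the cortices of Sprague Dawley rats at postnatal day 0, with 2 animals in a preparation, and were shaken off mixed glial cultures and replated in Neurobasal with B27 and N2. One group received 5 µM ZJU-37, a compound made by changing the RIPK1 inhibitor Nec-1s, and the other an equal volume of DMSO, both for 36 h by the sample labels, although the methods of the study give a shorter time. The sources differ on whether the 3 libraries of a group are biological repeats or wells of a plate, so p-values measure the spread between these libraries only.

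Histones are the proteins around which DNA is wound: H2A, H2B, H3 and H4 build the nucleosome core, and H1 binds the linker DNA between cores. Replication-dependent histone genes lie in clusters, have no introns and are transcribed in S phase, and their mRNAs end in a stem-loop in place of a poly-A tail. Variant histone genes lie alone, mostly have introns, make polyadenylated mRNA throughout the cell cycle and encode proteins such as H2A.Z, H2A.X, macroH2A and H3.3, which replace the core histones at promoters, at DNA breaks or in silent chromatin. H2afx is an exception among them, since its gene makes both a stem-loop mRNA and a polyadenylated one. The libraries were made from RNA bound to poly-T beads. A replication-dependent histone mRNA was therefore seen only as far as it carried a poly-A tail or a stretch of A, or escaped the selection, and its count here is not a measure of all its mRNA.

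The sequences just before the transcription start are shown for the 3 H2A variant genes that rose most with ZJU-37 and for Hist1h1c, the replication-dependent gene with most counts, because histone promoters are known for short shared elements. Each line gives the 160 bases that end at the base before the start, 5′ to 3′ in the direction of transcription, from the RefSeq promoters of build GRCr8. Capitals mark a CCAAT box, the element TTTGAA and the TATA element TATAAA, each read on either strand. A CCAAT box on the other strand therefore reads ATTGG here.
H2afz (H2az1 in RefSeq, chr2:229028935-229029094, plus strand): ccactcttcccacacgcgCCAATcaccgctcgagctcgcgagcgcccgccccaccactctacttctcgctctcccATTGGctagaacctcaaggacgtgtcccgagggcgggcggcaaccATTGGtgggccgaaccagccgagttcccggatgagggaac
H2afx (H2ax in RefSeq, chr8:53568558-53568717, plus strand): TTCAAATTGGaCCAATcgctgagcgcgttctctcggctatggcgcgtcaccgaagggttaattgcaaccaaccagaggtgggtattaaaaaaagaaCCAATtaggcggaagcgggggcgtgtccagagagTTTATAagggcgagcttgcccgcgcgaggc
H2afv (H2az2 in RefSeq, chr14:85526069-85526228, minus strand): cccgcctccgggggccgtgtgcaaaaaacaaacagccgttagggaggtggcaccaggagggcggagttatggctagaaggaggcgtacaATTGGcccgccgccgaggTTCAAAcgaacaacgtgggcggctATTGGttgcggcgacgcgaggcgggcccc
Hist1h1c (H1f2 in RefSeq, chr17:41820454-41820613, minus strand): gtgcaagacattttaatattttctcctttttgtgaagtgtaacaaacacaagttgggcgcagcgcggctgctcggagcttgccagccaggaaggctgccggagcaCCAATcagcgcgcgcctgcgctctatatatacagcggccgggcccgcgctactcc

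The H2afz window holds 3 CCAAT boxes and the H2afv window 2, together with 1 TTTGAA element in H2afv. The H2afx window holds 3 CCAAT boxes, 1 TATAAA and 1 TTTGAA, of which the last overlaps the outermost CCAAT box. In Hist1h1c 1 CCAAT box was found and no TATAAA in this strict spelling. Promoters of 22 replication-dependent and 8 variant genes could be matched, taken from 250 bases before to 50 bases after the start. A CCAAT box was found in 21 of the 22 replication-dependent and 5 of the 8 variant promoters, against 37.5% of all 33469 promoters of that length. TATAAA was found in 15 of 22 and 2 of 8, against 14.2% of all promoters. The octamer ATTTGCAT, a known element of H2B promoters, was found in 7 of 22 and 0 of 8, against 1.78%. TTTGAA was found in 9 of 22 and 3 of 8, against 18.3%. A match of letters is a description and not a binding site.

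The libraries held 13935865 to 24097927 counts, so that 3 counts correspond to 0.124 to 0.219 CPM (counts scaled to a common library size, with TMM factors), a limit that covers counting error only. Every one of the 7 OPC markers was counted in every library, with summed levels of 3857 to 4476 CPM in DMSO and 4411 to 6075 CPM in ZJU-37. Of these markers 4 rose with ZJU-37, Pdgfra among them, and 2 fell, namely Gpr17 and Sox10. Markers of mature oligodendrocytes summed to 11087 to 22050 CPM in DMSO and to 4666 to 9761 CPM in ZJU-37, with no overlap between the groups, and 2 of the 8 (Cnp and Myrf) fell while 0 rose. Astrocyte markers (928 to 1546 and 849 to 1292 CPM), microglia markers (1410 to 2324 and 1040 to 2176 CPM) and neuron markers (702 to 905 and 613 to 827 CPM) overlapped between DMSO and ZJU-37, and no marker of the 5 lists was at 0. Between libraries of the same replicate number, these sums were lower with ZJU-37 in every pair. The log2 ratios were -0.34 to -0.13 for astrocyte, -0.44 to -0.10 for microglia and -0.20 to -0.13 for neuron markers, which was not tested. These levels are of bulk RNA, in which fewer cells of a type and less RNA per cell cannot be told apart. The test between ZJU-37 and DMSO was the quasi-likelihood test of edgeR over the 14670 genes with enough counts, with Benjamini-Hochberg adjustment over all of them, and a gene was called at an adjusted p under 0.05.

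Among the variant genes, 4 of the 7 H2A variants rose with ZJU-37, while H2afy2, the H3.3 genes and the linker variant H1fx did not pass the test. The difference between families was not tested. Of the 11 variant genes 9 had enough counts to test, and 4 of them rose (H2afz, H2afx, H2afv and H2afy) while 0 fell. Over all tested genes the test called 15.0%, of which 9.43% of tested genes were higher and 5.58% lower. Of the variant genes 0 had an unadjusted p under 0.05 in the lower direction, and DESeq2, limma-voom and limma on FPKM also called 0 lower. The median log2 fold change of the 9 variant genes was 0.28, beside -0.03 over all tested genes. The groups did not overlap for 5 of the 9 genes, all higher with ZJU-37, where 19.0% of all tested genes were so placed. The remaining pair, H2afb3 and H2afj, had 0 counts in every library.

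H2afz encodes H2A.Z, the H2A variant of nucleosomes flanking active start sites. Its level was 219, 237 and 221 CPM in DMSO replicates 1 to 3 and 416, 363 and 366 CPM in ZJU-37 replicates 1 to 3. Every ZJU-37 library lay above every DMSO library, and the lowest of them was far above the highest DMSO value. The group means (± SD, 3 libraries each) were 226 ± 9.70 and 382 ± 29.5 CPM, and the log2 fold change was 0.76 (SE 0.08, adjusted p = 0.00127, edgeR's quasi-likelihood test). The span of H2afz in the table, chr2:243105674-243106956, overlaps that of Dnajb14, which had 1968 counts in all libraries together, and the build of these coordinates is not given in the sources used here. H2afv, the gene of the second H2A.Z protein, stood at 67.4, 63.3 and 65.0 CPM in DMSO and at 112, 88.0 and 92.5 CPM in ZJU-37. The groups were again apart, with replicate 1 the highest of the ZJU-37 libraries. H2afv rose from 65.2 ± 2.09 to 97.6 ± 13.0 CPM (log2 fold change 0.58, SE 0.10, adjusted p = 0.0101, same test). A row outside the naming rule, AABR07032821.1, is described as similar to H2A histone family member V, and it rose from 13.8 to 20.9 CPM (log2 fold change 0.61, adjusted p = 0.0216, same test), so that reads of near-identical copies may be split between these rows. H2afz gave 76.5% to 80.5% of the counts of both H2A.Z genes in the 6 libraries. Their summed level was 287, 300.3 and 286 CPM in DMSO and 528, 451 and 459 CPM in ZJU-37, a ratio of 1.65.

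**Figure D1:**
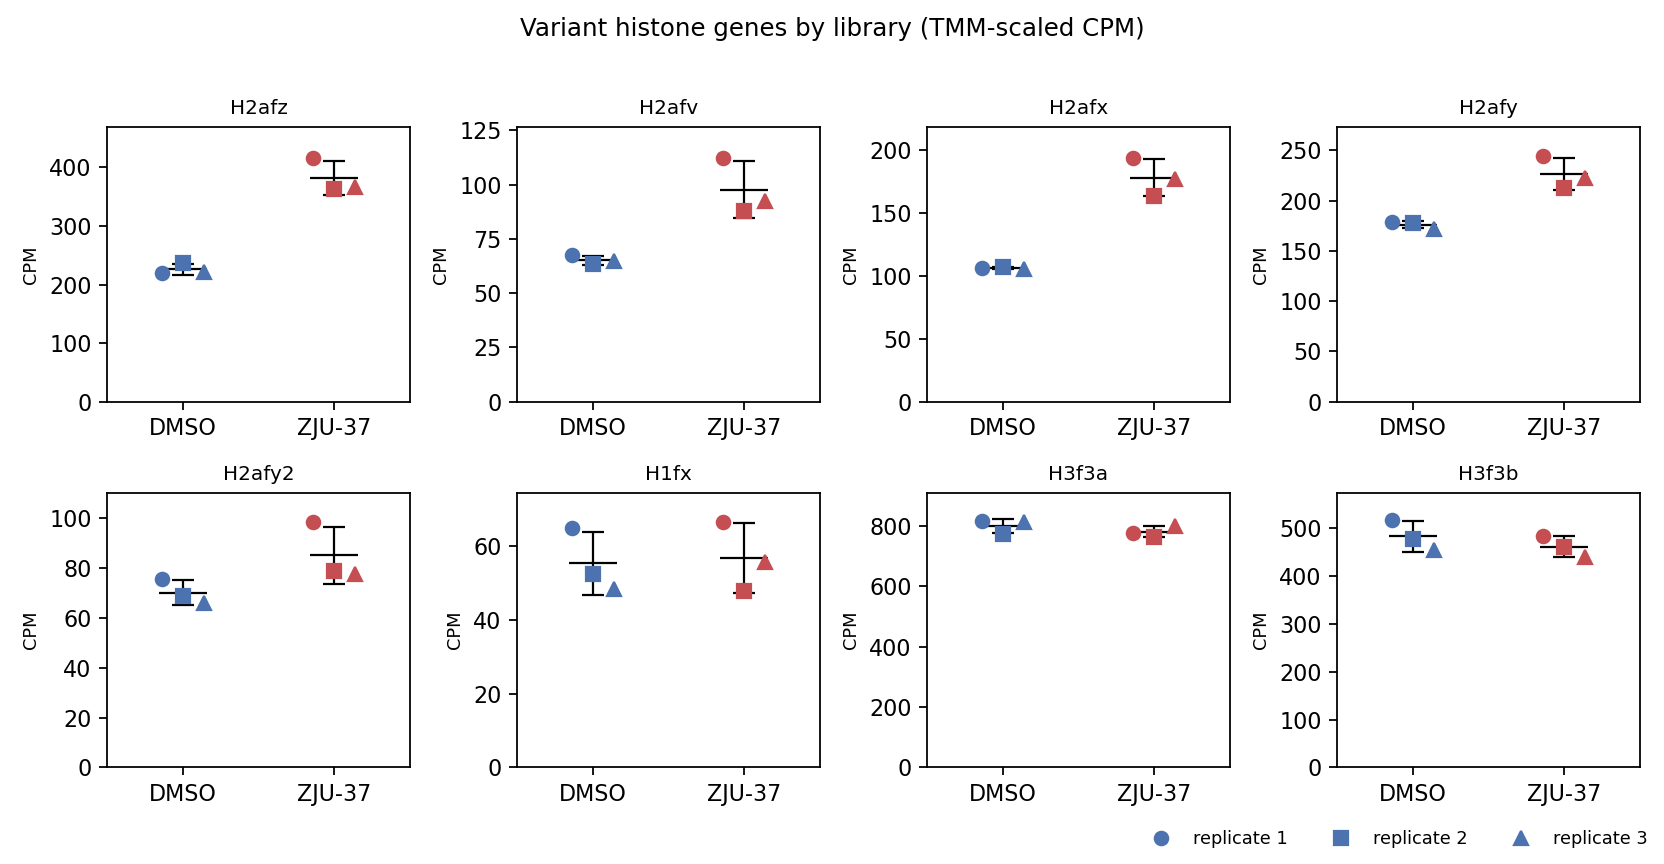
Level of 8 variant histone genes in each library (y axes: TMM-scaled CPM, from 0). Points are libraries, with the shape giving the replicate number. Long bars are group means and short bars 1 SD (n = 3). For H2afz, H2afv, H2afx, H2afy and H2afy2 the 3 ZJU-37 libraries lie above the 3 DMSO libraries, and for H1fx, H3f3a and H3f3b the groups overlap.

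H2afx encodes H2A.X, the variant that is phosphorylated around DNA double-strand breaks. It was counted at 106, 107 and 105 CPM in DMSO and at 194, 164 and 177 CPM in ZJU-37. The DMSO libraries lay within a few CPM of each other and all ZJU-37 libraries were well above them. H2afx rose from 106 ± 0.988 to 178 ± 15.1 CPM (log2 fold change 0.75, SE 0.07, adjusted p = 0.00109, edgeR's quasi-likelihood test). Whether its stem-loop or its polyadenylated mRNA moved cannot be told apart in counts per gene.

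H2afy and H2afy2 encode the macroH2A proteins, H2A variants with a large extra domain that are known from silent chromatin. H2afy stood at 179, 178 and 172 CPM in DMSO and at 244, 213 and 223 CPM in ZJU-37, with no overlap. It rose from 176 ± 3.81 to 227 ± 16.3 CPM (log2 fold change 0.36, SE 0.07, adjusted p = 0.0153, edgeR's quasi-likelihood test). The adjusted p of H2afy was 0.0599 without DMSO replicate 2 and 0.0627 without DMSO replicate 3. H2afy2 was at 75.5, 68.8 and 65.8 CPM in DMSO and at 98.3, 78.9 and 77.7 CPM in ZJU-37, where the lowest ZJU-37 library was just above the highest DMSO library. Its log2 fold change of 0.28 missed the threshold (SE 0.11, adjusted p = 0.146, same test). With the replicate number as a block, which pairs the same-numbered libraries, the adjusted p of H2afy2 was 0.00657, and 5 of the 9 variant genes were then called higher and 0 lower, beside 16.2% higher and 15.9% lower over all tested genes. All 5 counted H2A variants together summed to 647, 654 and 629 CPM in DMSO and 1065, 907 and 936 CPM in ZJU-37, a ratio of 1.51.

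H3.3, the H3 that is laid down outside replication, is made by H3f3a and H3f3b. H3f3a was at 814, 771 and 811 CPM in DMSO and at 776, 763 and 799.8 CPM in ZJU-37, so that the groups overlapped. Its log2 fold change was -0.03 (SE 0.06, adjusted p = 0.771, edgeR's quasi-likelihood test). H3f3b stood at 518, 478 and 454 CPM in DMSO and at 484, 461 and 439.6 CPM in ZJU-37, also with overlap, and its log2 fold change was -0.07 (SE 0.08, adjusted p = 0.632, same test). H3f3c, another gene of the family, had 27.2, 29.1 and 25.4 CPM in DMSO and 26.9, 25.0 and 22.9 CPM in ZJU-37 (log2 fold change -0.13, SE 0.09, adjusted p = 0.439, same test). None of these p-values shows that the levels were equal, and the standard errors give the size of a difference that could be missed. The sum of the 3 genes was 1359, 1278 and 1290.1 CPM in DMSO and 1287, 1249 and 1262 CPM in ZJU-37, a ratio of 0.967 with overlapping groups. The table places H3f3a on chromosome 10 and H3f3b on chromosome 13, while RefSeq build GRCr8 places them the other way round, so the pair is best read as a sum. H1fx, a linker histone variant, was at 64.8, 52.4 and 48.4 CPM in DMSO and at 66.5, 47.9 and 55.7 CPM in ZJU-37, and replicate 1 was the highest in both groups. The log2 fold change of H1fx was 0.04 (SE 0.15, adjusted p = 0.898, same test).

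Per kilobase of the gene length in the table, the order of the variants over all 6 libraries was H3f3b (1149 CPM per kb), H2afz (791), H3f3a (477), H2afx (107), H2afy (105), H1fx (96.6), H2afv (43.0), H2afy2 (40.3) and H3f3c (26.2). The models of H3f3b and H2afz hold 411 and 384 bases, a coding length, and those of the other ranked variants are longer, from 579 bases in H1fx to 1925 in H2afy2. Levels per kb may not be comparable between models with and without untranslated parts, which was not tested. Within the groups the order changed: H2afx lay below H2afy in DMSO (79.9 and 92.0 CPM per kb) and above it in ZJU-37 (134 and 118 CPM per kb). H1fx lay above both in DMSO (95.3 CPM per kb) and below both in ZJU-37 (97.9 CPM per kb). H2afv and H2afy2 differed in DMSO by less than the spread of their libraries, at 34.4 and 36.4 CPM per kb. Within the counts of all variant genes, the H2A variants took 32.1 ± 0.867% in DMSO and 42.2 ± 1.57% in ZJU-37 (SD, n = 3), with no overlap between 31.2% to 33.0% and 41.1% to 44.0%.

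**Figure D2:**
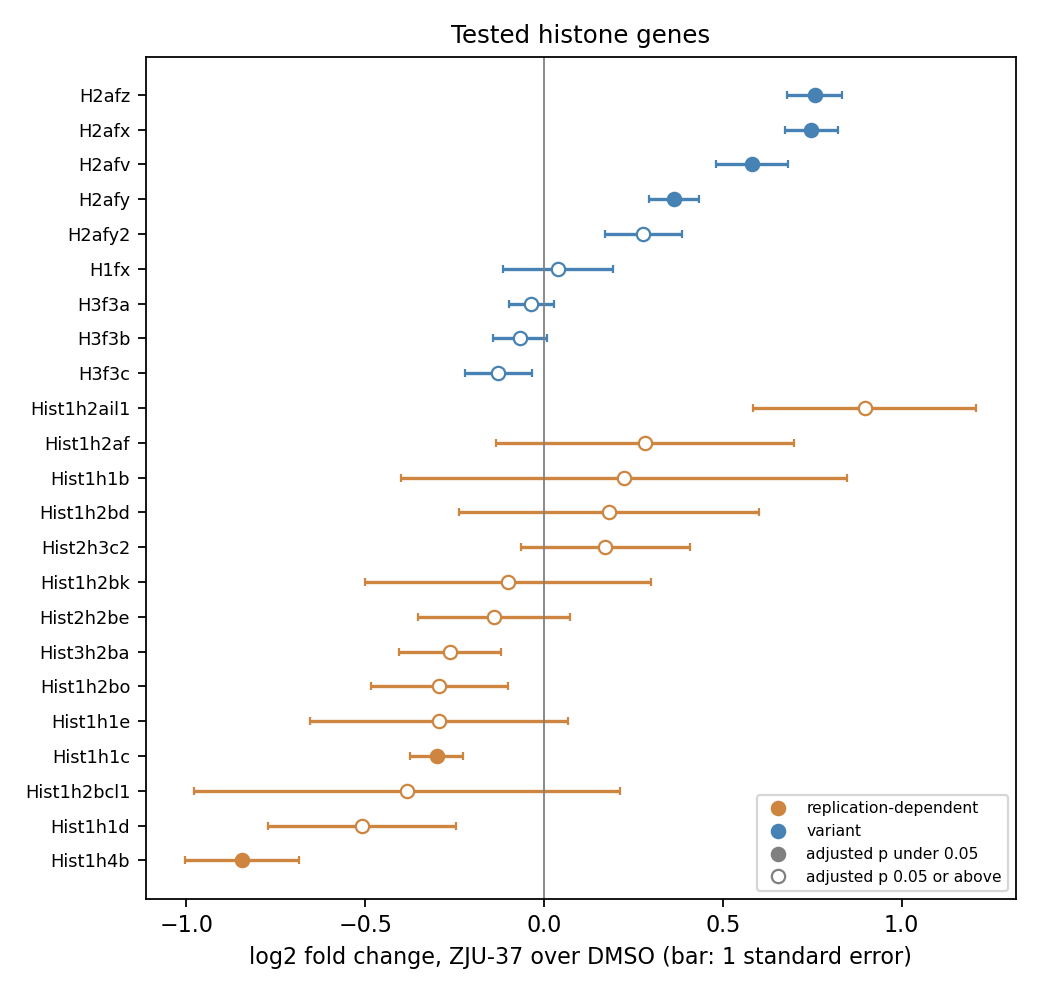
Log2 fold change of the 23 tested histone genes (x axis: ZJU-37 over DMSO, edgeR's quasi-likelihood fit, bars of 1 standard error), with variant genes above and replication-dependent genes below. Filled points have an adjusted p under 0.05: 4 variant genes lie to the right of 0, and 2 replication-dependent genes, Hist1h1c and Hist1h4b, to the left.

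The replication-dependent genes gave few counts, and most could not be tested. Of the 34 genes, 14 had enough counts to test, 19 had 1 to 60 counts over all 6 libraries together, and Hist1h2ao had 0. The median total of a gene was 47 counts. Of the 14 tested genes 0 rose and 2 fell, namely Hist1h1c and Hist1h4b, where 9.43% of all tested genes rose and 5.58% fell. In the higher direction 1 of the 14 genes, Hist1h2ail1, had an unadjusted p under 0.05, and DESeq2, limma-voom and limma on FPKM each called 0 higher. The median log2 fold change of the 14 genes was -0.20, from -0.84 to 0.90, with 5 values above 0 and 9 below. Without the filter on low counts the median over 33 genes was -0.10, with 16 values above 0 and 17 below. Because a gene passed the filter through its own counts, the 14 genes do not stand for the class.

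Hist1h1c, which encodes a linker histone that also is made in resting cells, gave 69.5% to 73.9% of all replication-dependent counts. It was at 208, 197 and 197 CPM in DMSO and at 162, 150.0 and 176 CPM in ZJU-37, and all ZJU-37 libraries were below all DMSO libraries. The group mean fell from 201 ± 6.24 to 163 ± 13.1 CPM, with a log2 fold change of -0.30 (SE 0.07, adjusted p = 0.0403, edgeR's quasi-likelihood test). This call rests on all 6 libraries: without any one of them the adjusted p lay between 0.0531 and 0.109, with log2 fold changes between -0.34 and -0.22. Scaled by library totals without TMM, the adjusted p of Hist1h1c was 0.0732. Hist1h4b, an H4 gene, had 108, 159 and 143 counts in DMSO and 75, 106 and 107 counts in ZJU-37, although the ZJU-37 libraries were on the whole deeper. On the CPM scale its level was 7.89, 8.98 and 7.59 in DMSO and 4.06, 5.14 and 4.42 in ZJU-37, without overlap. Hist1h4b fell by 0.84 on the log2 scale (SE 0.16, adjusted p = 0.0143, same test), with an adjusted p of 0.0607 without DMSO replicate 2 and of 0.0634 without ZJU-37 replicate 3. The table places this row on chromosome 4 and RefSeq places Hist1h4b on chromosome 17, and H4 genes are near-identical in coding sequence, so its counts may belong in part to another H4 copy.

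The other tested replication-dependent genes showed no common direction. Hist3h2ba, an H2B gene and the second most counted member, was at 48.7, 40.8 and 42.8 CPM in DMSO and at 44.4, 31.0 and 35.0 CPM in ZJU-37, so that the groups overlapped through ZJU-37 replicate 1. Its log2 fold change was -0.26 (SE 0.14, adjusted p = 0.292, edgeR's quasi-likelihood test, and 0.0153 with the replicate block). Hist1h2ail1, an H2A gene by name, had 9, 20 and 27 counts in DMSO and 34, 40 and 56 counts in ZJU-37, from 1.07 ± 0.391 to 2.03 ± 0.251 CPM. It was the only tested replication-dependent gene whose ZJU-37 libraries all lay above the DMSO libraries (log2 fold change 0.90, SE 0.31, adjusted p = 0.111, same test, and 0.0336 with the replicate block). The model of Hist1h2ail1 holds 411 bases, as does that of the H3 gene Hist2h3c2. That of the H2A gene Hist1h2af holds 393 bases, so the family of Hist1h2ail1 rests on its name. With the block, 1 of the 14 genes was called higher and 3 lower, beside 16.2% higher and 15.9% lower over all tested genes. Hist1h1d, a linker histone gene, had 33, 32 and 32 counts in DMSO and 25, 23 and 40 counts in ZJU-37 (log2 fold change -0.51, SE 0.26, adjusted p = 0.268, same test). On the CPM scale the ZJU-37 libraries were all below the DMSO libraries in Hist1h1d, Hist1h1c and Hist1h4b, that is in 3 of 14 genes, where 16.2% of all tested genes were so placed. Hist1h2bo, an H2B gene whose annotated span includes 3 other members (Hist1h1b, Hist1h2an and Hist1h3b), was at 4.97, 5.08 and 4.67 CPM in DMSO and at 4.92, 3.73 and 3.39 CPM in ZJU-37. Hist2h2be, another H2B gene, had 2.56, 3.05 and 2.55 CPM in DMSO and 2.49, 2.86 and 2.07 CPM in ZJU-37. Hist2h3c2, the one tested H3 gene by name, had 2.34, 1.58 and 1.86 CPM in DMSO and 1.89, 2.13 and 2.44 CPM in ZJU-37. In these 3 genes the groups overlapped, with log2 fold changes of -0.29, -0.14 and 0.17 and adjusted p-values of 0.385, 0.722 and 0.693 from the same test. The remaining 6 tested genes (Hist1h1b, Hist1h1e, Hist1h2af, Hist1h2bcl1, Hist1h2bd and Hist1h2bk) had log2 fold changes from -0.38 to 0.28 with adjusted p-values from 0.655 to 0.901.

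**Figure D3:**
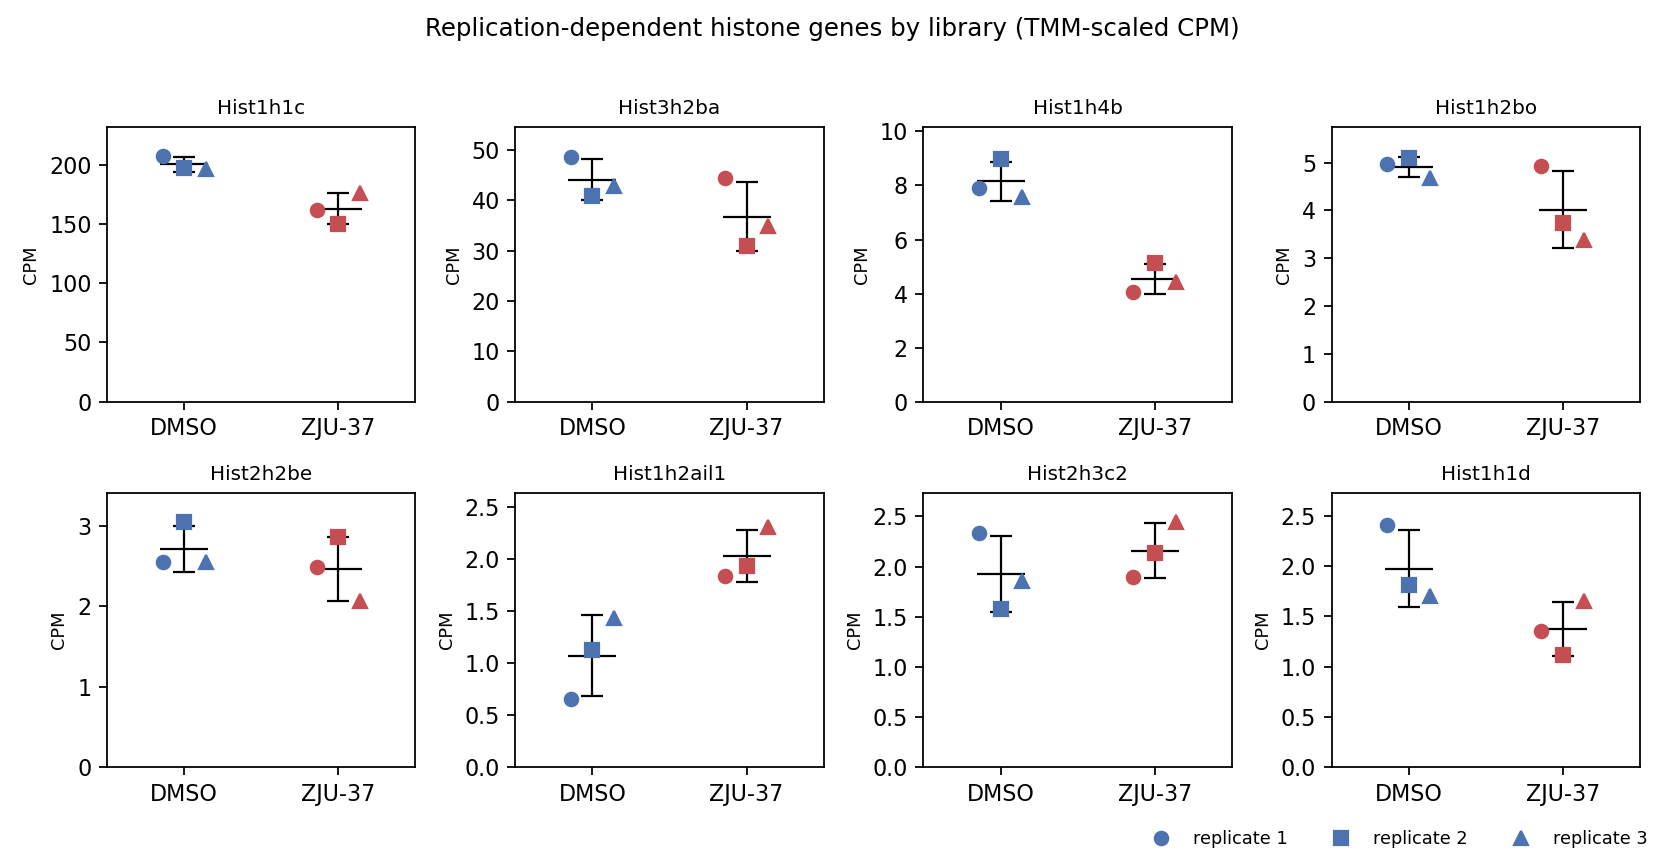
Level of 8 replication-dependent histone genes in each library (y axes: TMM-scaled CPM, from 0). Points are libraries, with the shape giving the replicate number. Long bars are group means and short bars 1 SD (n = 3). For Hist1h1c, Hist1h4b and Hist1h1d all ZJU-37 libraries lie below all DMSO libraries, for Hist1h2ail1 all lie above, and the other 4 genes overlap.

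Per kilobase, Hist1h1c stood at 284 CPM over the 6 libraries, Hist3h2ba at 64.2, Hist1h4b at 20.3, Hist2h2be at 6.81 and Hist2h3c2 at 4.96 CPM per kb. Of the 34 gene models 30 have a length that is a multiple of 3, and those of the H2B genes Hist3h2ba (630 bases) and Hist1h2bo (1035 bases) are longer than that of Hist2h2be (381 bases). The 3 leading genes Hist1h1c, Hist3h2ba and Hist1h4b together gave 90.2% to 92.1% of the counts of the class. The level of the class therefore followed these genes. Its sum was 287, 269.5 and 268 CPM in DMSO and 233, 206 and 239 CPM in ZJU-37, a ratio of 0.822 without overlap. Without Hist1h1c the ratio was 0.849. The other 31 genes summed to 22.9, 22.4 and 21.3 CPM in DMSO and to 22.7, 20.2 and 22.9 CPM in ZJU-37, a ratio of 0.987 with overlapping groups. The sums of families pointed in different directions, at 0.812 for H1, 1.24 for H2A, 0.846 for H2B, 1.302 for H3 and 0.582 for H4 as the ratio of ZJU-37 to DMSO. In H2A, H2B and H3 the groups overlapped. The H2A sum went from 4.06 to 5.05 CPM, and its most counted gene, Hist1h2ail1, alone went from 1.07 to 2.03 CPM. The H2B and H3 sums were led by Hist3h2ba and Hist2h3c2. In H1 and H4 the groups did not overlap, and these sums were led by Hist1h1c and Hist1h4b.

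**Figure D4:**
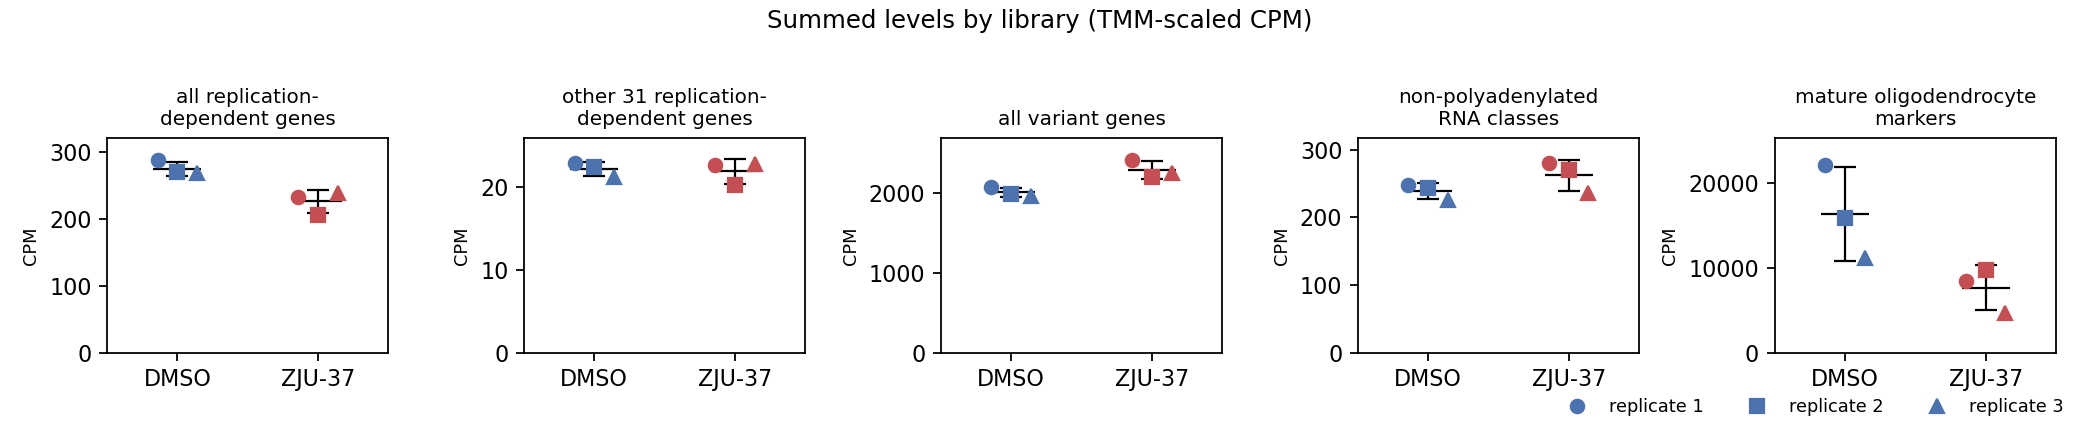
Summed level per library (y axes: TMM-scaled CPM, from 0) of all 34 replication-dependent genes, of the 31 of them without Hist1h1c, Hist3h2ba and Hist1h4b, of the 11 variant genes, of non-polyadenylated RNA classes and of 8 mature oligodendrocyte markers. Points are libraries, long bars means and short bars 1 SD (n = 3). The ZJU-37 libraries are lower in the first and last panels, higher for the variants, and overlap with DMSO in the other panels.

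The variant genes summed to 2071, 1985 and 1968 CPM in DMSO and to 2418, 2203 and 2254 CPM in ZJU-37, a ratio of 1.14 without overlap. Leaving out H2afz, whose span overlaps another counted gene, gave a log2 ratio of 0.10 with overlapping groups, against 0.19 for all variants. Replication-dependent genes gave between 11.95% and 12.18% of all histone counts in the DMSO libraries and 8.80%, 8.56% and 9.57% in the ZJU-37 libraries. All histone genes together took 0.221% to 0.276% of the counts of a library. Classes of RNA that carry no poly-A tail (snRNA, snoRNA, scaRNA and ribozymes) summed to 226 to 248 CPM in DMSO and 236 to 280 CPM in ZJU-37, with overlap. Between libraries of the same replicate number, the log2 ratios of this sum were 0.18, 0.15 and 0.06. Most of this sum was snoRNA. Ribozymes alone, a small part of this sum, were lower in ZJU-37, at 0.951 to 1.78 CPM against 1.81 to 2.703 CPM in DMSO. Mitochondrial rRNA was lower in ZJU-37, at 525 to 643 CPM against 797 to 843 CPM in DMSO. Markers of mature oligodendrocytes were lower in the same libraries, as given above, and the part of either in the histone levels was not tested.

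Genes that act on histone mRNA and histone proteins were examined beside the members. The list of histone mRNA processing genes holds 15 members, all tested, of which 6 rose and 0 fell (9.43% and 5.58% of all tested genes), with a median log2 fold change of 0.19. Of these genes 0 had an unadjusted p under 0.05 in the lower direction, and DESeq2, limma-voom and limma on FPKM called 0 lower. Slbp encodes the protein that binds the histone stem-loop. It stood at 46.0, 51.9 and 52.6 CPM in DMSO and at 87.6, 78.5 and 76.6 CPM in ZJU-37, well apart. Slbp rose by a log2 fold change of 0.69 (SE 0.08, adjusted p = 0.00237, edgeR's quasi-likelihood test). The other members that rose were Eri1, the exonuclease that trims the stem-loop (0.64), Lsm11 of the U7 particle (0.59), Casp8ap2, a partner of Lsm11 (0.39), Cstf2, a cleavage factor (0.39) and Npat, the activator of histone transcription (0.24, adjusted p = 0.0494, same test). Without 1 library the count of members that rose lay between 2 and 5, and it was 2 without DMSO replicate 2 or DMSO replicate 3 and 3 without DMSO replicate 1 or ZJU-37 replicate 3. With the replicate block 7 processing genes were called higher and 0 lower, beside 16.2% higher and 15.9% lower over all tested genes.

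The list of histone chaperones and partners holds 28 genes, all tested, of which 16 rose and 0 fell (9.43% and 5.58% of all tested genes), with a median log2 fold change of 0.26. In the lower direction 1 gene had an unadjusted p under 0.05, and DESeq2, limma-voom and limma on FPKM called 0 lower. With the replicate block 18 chaperone genes were called higher and 0 lower, beside 16.2% higher and 15.9% lower over all tested genes. Asf1b, which carries new H3 and H4, was at 14.3, 16.6 and 14.7 CPM in DMSO and at 36.0, 32.1 and 33.4 CPM in ZJU-37. Its libraries were far apart, with a log2 fold change of 1.15 (SE 0.09, adjusted p = 0.000549, edgeR's quasi-likelihood test). The CAF-1 subunits Chaf1a and Chaf1b rose by log2 fold changes of 0.92 and 1.04. Tonsl and Mms22l, which bind new histones at forks, rose by 1.07 and 1.12, and Nasp, which holds a reserve of H3 and H4, rose by 0.83. Of the genes of the centromere, Cenpa, an H3 variant whose name is outside the rule, rose by 1.22 and its chaperone Hjurp by 1.18. Dnajc9, a cochaperone of H3 and H4 (0.65), Nap1l1, a chaperone of H2A and H2B (0.56), Anp32e, a chaperone that removes H2A.Z (0.51), both FACT subunits Supt16h (0.32) and Ssrp1 (0.31), Cabin1 of the HIRA complex (0.25) and the H4-binding proteins Rbbp7 (0.25) and Rbbp4 (0.23) rose as well. Members of the H3.3 pathways did not pass the test apart from Cabin1: Hira had a log2 fold change of -0.39 (adjusted p = 0.168), Daxx of 0.10 (adjusted p = 0.633), Atrx of -0.15 (adjusted p = 0.350) and Ubn1 of 0.04 (adjusted p = 0.727), all from edgeR's quasi-likelihood test. Asf1a, the paralog of Asf1b, had one of 0.27 (adjusted p = 0.0896, same test, and 0.0118 with the replicate block). For Nap1l4 the log2 fold change was 0.19 (adjusted p = 0.0914, same test, and 0.0160 with the replicate block). Srcap and Ep400, which lead the complexes that insert H2A.Z, had log2 fold changes of 0.03 and 0.06 and did not pass the test. A list of 24 genes of S phase rose in all members, from 0.44 (Gins2) to 1.59 (Rrm2), with a median of 1.19, beside the medians of -0.20 for the tested replication-dependent and 0.28 for the tested variant histone genes.

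**Figure D5:**
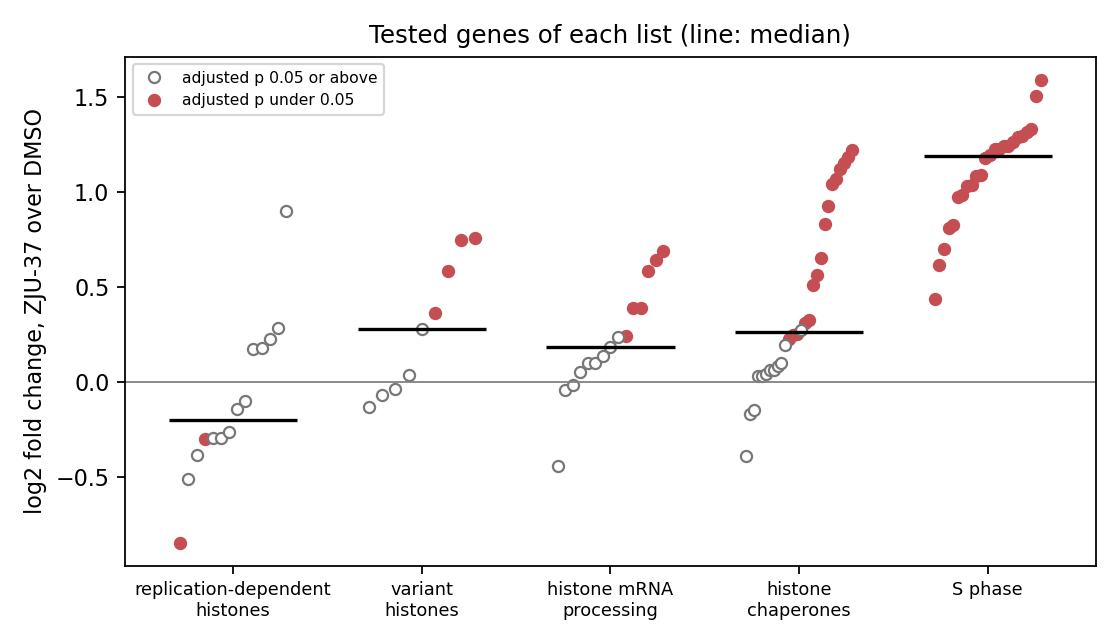
Log2 fold changes (y axis: ZJU-37 over DMSO) of the tested genes of 5 lists, each point 1 gene and each line the median of its list. Filled points have an adjusted p under 0.05. The medians are -0.20 for replication-dependent histones, 0.28 for variants, 0.19 for histone mRNA processing, 0.26 for chaperones and 1.19 for S phase genes.

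The 5 histone genes of germ cells had 0 to 57 counts over the 6 libraries and were not tested. Their sum was 0.485 to 0.796 CPM, and H1fnt had 0 counts in every library. The germ cell genes were chosen as a class that these cells should not use, and 19 replication-dependent genes had totals of 1 to 60, a range that includes the highest germ cell total, that of Hist1h1t. The other germ cell genes had totals of only 0 to 8 counts.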

How the data were processed

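RNA bound to poly-T beads was sequenced from 3 DMSO and 3 ZJU-37 libraries of cultured OPCs. The authors deposited raw counts per gene from featureCounts (version 1.5.0, with HISAT2 2.0.5 and StringTie 1.3.3b in the submitters' processing notes), neither normalized nor filtered, beside gene lengths and FPKM values that the authors made from the counts. The genome build, the use of strand and the treatment of reads with several matches are not given in the sources used here, so counts of near-identical histone copies are uncertain. The deposited fold changes and p-values of the authors' own DESeq2 comparison were not used. Read alignment and counting were not repeated.

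Counts of all genes were filtered with filterByExpr, scaled by TMM and tested with edgeR 4.0.16 (robust glmQLFit, glmQLFTest) under R 4.3.3, with the 6 libraries in one fit and Benjamini-Hochberg adjustment over 14670 genes. The method was tested on simulated data with 200 changed genes and no replicate effect. At an adjusted p under 0.05, 8.74% of edgeR's calls were false, 11.5% of those with the replicate block and 22.4% of DESeq2's. Of the changed genes, these fits recovered 83.5%, 80.5% and 90%. CPM values were scaled by the TMM library size, and sums over genes carry no test. Library totals ran from 13935865 to 24097927. No pair of libraries agreed within counting noise.

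Groups and replicate numbers come from the sample titles. After subtraction of the group means, libraries that share a number correlated across genes with r = 0.39, 0.31 and 0.33, against -0.27 to -0.01 for other pairs (genes are not independent replicates). The numbers were therefore taken to pair the libraries. A fit with the replicate number as a block is given where it changes the call of a member, and as counts for the processing and chaperone lists.

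The members and lists were chosen with earlier results of these data known. Every member could be named. Values per library are given for members called with or without the block, for the 5 genes of each class with the highest level per kb and for H2afz, H2afx, H3f3a and H3f3b. Of the processing and chaperone lists those called are named, with Slbp, Asf1a, Asf1b, Chaf1a, Chaf1b, Hira, Daxx and Cenpa, and of the S phase list its extremes. H2afv, H3f3c, H1fx, Hist1h1d, Hist1h2bo, Atrx, Ubn1, Nap1l4, Srcap and Ep400 were given values after these had been seen. H1f0 and Hist3h3 were not analysed here. Srrt was matched through its older row name. Alternatives were DESeq2 1.42.0, limma-voom and limma on log2(FPKM + 1) with limma 3.58.1, other scalings, filters and thresholds, the block, leaving out each library, and sums without overlapping genes. The sum without Hist1h1c was added after the data had been seen. Promoters, gene names and synonyms come from RefSeq (GRCr8).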

Additional observations from a re-analysis of the deposited data

How the results depend on the processing

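For the 9 members called with or without the block there were 134 alternative results, from refits and from the same fit read at an adjusted p under 0.01. Of these 116 kept their side of the threshold, 15 lost a call, 3 gained one and 0 reversed. The 116 include 13 for Hist1h2ail1 and 14 each for Hist3h2ba and H2afy2, which only stayed uncalled. Of the 23 tested members, 5 took both signs over the alternatives (Hist1h1b, Hist1h2bd, Hist1h2bk, H1fx and H3f3a), and 0 of these 5 were called in any of them. The 3 gains were those of the fit with the replicate block (Hist1h2ail1, Hist3h2ba and H2afy2), which gave 1 replication-dependent gene called higher against 0 and changed no other call of a member. The count of replication-dependent genes called lower, 2, was 1 with library totals only, 0 at an adjusted p under 0.01 and 0 to 1 without 1 library. The variant genes called higher, 4, were 2 at an adjusted p under 0.01 and 3 to 4 without 1 library, and their median log2 fold change ran from 0.18 to 0.37 without 1 library, lowest without ZJU-37 replicate 1. The processing genes called higher, 6, were 3 with limma on log2(FPKM + 1), 2 at an adjusted p under 0.01 and 2 to 5 without 1 library. Chaperones called higher were 11 to 15 without 1 library, against 16, and S phase genes stayed at 24. The log2 ratio of summed variant levels, 0.19, was 0.10 without the member whose span overlaps another gene, H2afz, by construction. The causes of the other changes were not tested. Over all genes, the block gave 32.1% called against 15.0%. Asking for 10 counts per library gave no value for Hist1h2ail1. In the replication-dependent class 20 of 34 genes had at most 60 counts in all.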

Other observations

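Outside the naming rule, 19 rows are described in the table as histones or as similar to one. The row with most counts among them, an H4-like row named LOC100912564 (ENSRNOG00000054017, a model of 1296 bases), had 62.9 CPM on average in DMSO and 67.4 CPM in ZJU-37 (log2 fold change 0.10, adjusted p = 0.618, edgeR's quasi-likelihood test), more counts than any H4 gene under the rule. A row described as H2A.J, LOC103690002, had 1 to 4 counts per library, while H2afj had 0 in every library.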
